A study of Mus musculus with 6 samples.

Results

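The Sonic hedgehog pathway was followed through 9 mRNAs, chosen by name: the ligand Shh, the receptor Ptch1, the co-receptor Boc, the surface inhibitor Hhip, the signal transducer Smo, the cytoplasmic inhibitor Sufu and the transcription factors Gli1, Gli2 and Gli3. All 9 were found by gene symbol among the 22048 genes of the deposited RNA-Seq table, and 8 of them had enough reads to be tested. RNA came from neurospheres of C57BL/6 mice, which are floating clusters grown from hypothalamic neural stem/progenitor cells (NSC/NPCs) of male fetuses at E14.5 and harvested at passage 1. There were 3 samples of prenatal high estradiol exposure (HE) and 3 control (NC) samples. Dams of both groups were 8 weeks old. HE dams were gavaged daily with estradiol valerate (100 μg/kg/d) between E5.5 and E11.5. The NC samples are labelled as untreated, while the treatment protocol says that their dams were given the corn oil solvent. Per the study, this was by gavage over the same days. Each sample pooled cells of 2 mice, and the labels do not say whether these were littermates. Cells of both groups grew in 2 growth factors, EGF and bFGF, each at 10 ng/ml, and the protocol lists no hedgehog ligand or agonist in the medium. Values are RPKM, the reads on a gene scaled to its length in kilobases and to the sample's total of reads on genes.

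In the absence of ligand, Ptch1 keeps Smo inactive, and Gli proteins, above all Gli3, are processed into repressors with the help of Sufu. Binding of a hedgehog ligand to Ptch1, aided by co-receptors such as Boc, releases Smo in the primary cilium and lets Gli2 and Gli3 act as activators. Gli1, Ptch1 and Hhip are themselves target genes of the pathway, and Gli1 mRNA is commonly read as a sign of its activity. In the embryo Shh made along the ventral midline helps to set up the hypothalamus and to sustain its progenitors.

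For 6 of the 9 members a promoter window was at hand in RefSeq (GRCm38.p6), of which the 250 bases before an annotated start are used here. Of these, 3 are printed in the direction of transcription. Gli2 and Sufu are shown because they were the members whose HE values all lay below the NC values, and Ptch1 because it is a textbook target of the pathway. The windows lie at chr1:119053620-119053869 on the minus strand for Gli2, at chr19:46396646-46396895 on the plus strand for Sufu and at chr13:63565736-63565985 on the minus strand for Ptch1. Those of Gli2 and Ptch1 lie inside the RefSeq spans of their genes, which reach to 119054405 and 63573460. They therefore precede an internal start, and the outermost starts of these genes were not searched. Capitals mark each GC box (GGGCGG, or CCGCCC on the other strand).
Gli2: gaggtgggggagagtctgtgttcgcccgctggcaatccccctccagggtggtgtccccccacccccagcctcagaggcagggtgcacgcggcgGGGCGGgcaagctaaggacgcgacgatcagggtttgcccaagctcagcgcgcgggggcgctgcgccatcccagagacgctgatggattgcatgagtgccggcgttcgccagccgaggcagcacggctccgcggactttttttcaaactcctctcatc
Sufu: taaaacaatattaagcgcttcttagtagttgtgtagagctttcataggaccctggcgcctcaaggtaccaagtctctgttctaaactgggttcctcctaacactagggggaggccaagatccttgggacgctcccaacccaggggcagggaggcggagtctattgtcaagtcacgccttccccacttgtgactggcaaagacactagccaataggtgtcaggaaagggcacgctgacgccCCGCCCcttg
Ptch1: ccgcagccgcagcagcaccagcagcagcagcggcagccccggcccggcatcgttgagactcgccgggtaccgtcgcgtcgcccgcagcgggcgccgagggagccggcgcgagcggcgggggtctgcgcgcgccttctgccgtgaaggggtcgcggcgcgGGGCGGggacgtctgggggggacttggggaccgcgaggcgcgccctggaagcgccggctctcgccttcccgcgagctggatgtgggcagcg
Each of the 3 windows held 1 GC box, a motif present in 32.7% of all 32851 windows of this length. Gli3 and Hhip, not printed, held 2 each and Smo held 0. G and C made up 67.2% of the Gli2 window, 54% of Sufu and 78.4% of Ptch1, against a median of 52.4% over all windows. The share of 32.7% is not matched for this. The 9-base Gli motif GACCACCCA (TGGGTGGTC on the other strand) was in none of the 6 member windows, also with its base 5 left free, and in 0.225% of all windows. The palindrome GGTCA, any 3 bases, TGACC, a motif of estrogen receptors, was likewise in none of the 6, and in 0.0639% of all windows. The single GGTCA, or TGACC on the other strand, was in 1 of the 6, that of Gli3, against 35.2% of all windows.

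The read total on genes ranged from 16078675 in HE3 to 19137059 in NC2, so that 1 read on a gene of 1 kilobase was worth 0.0523 to 0.0622 RPKM. The progenitor markers Sox2, at 97.3 to 209 RPKM, and Nes, at 154 to 247 RPKM, were abundant in all 6 samples. HE3 stood apart from the other samples and received the lowest weight, 0.158 against 0.852 to 2.87, when limma weighted the samples by their spread. Fold changes of the tested members and of the pathway genes named by rule are therefore also given without HE3. Group differences are log2 fold changes of HE against NC on log2(RPKM + 0.1), which understates the change of scarce mRNAs, with p-values from limma adjusted by the Benjamini-Hochberg method over the 13952 genes tested.

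The levels of the 9 mRNAs spanned from Smo, the most abundant, to Shh, which was close to absent. Over the 6 samples the mean RPKM was 41.8 for Smo, 9.06 for Ptch1, 6.94 for Boc, 3.89 for Sufu, 3.04 for Gli3, 1.23 for Gli2, 0.246 for Hhip, 0.171 for Gli1 and 0.0586 for Shh. The order of the 5 most abundant and Gli2 was the same within each of the 6 samples, although the ranges over samples overlapped between Ptch1 and Boc, between Boc and Sufu and between Sufu and Gli3. Among Hhip, Gli1 and Shh neighbouring ranges overlapped in both groups, and in HE the range of Hhip also reached that of Gli2, because Hhip lay above Gli2 in HE3. The receptor side of the pathway was thus well represented in the RNA, and the ligand and the target Gli1 were at a few reads.

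**Figure D1:**
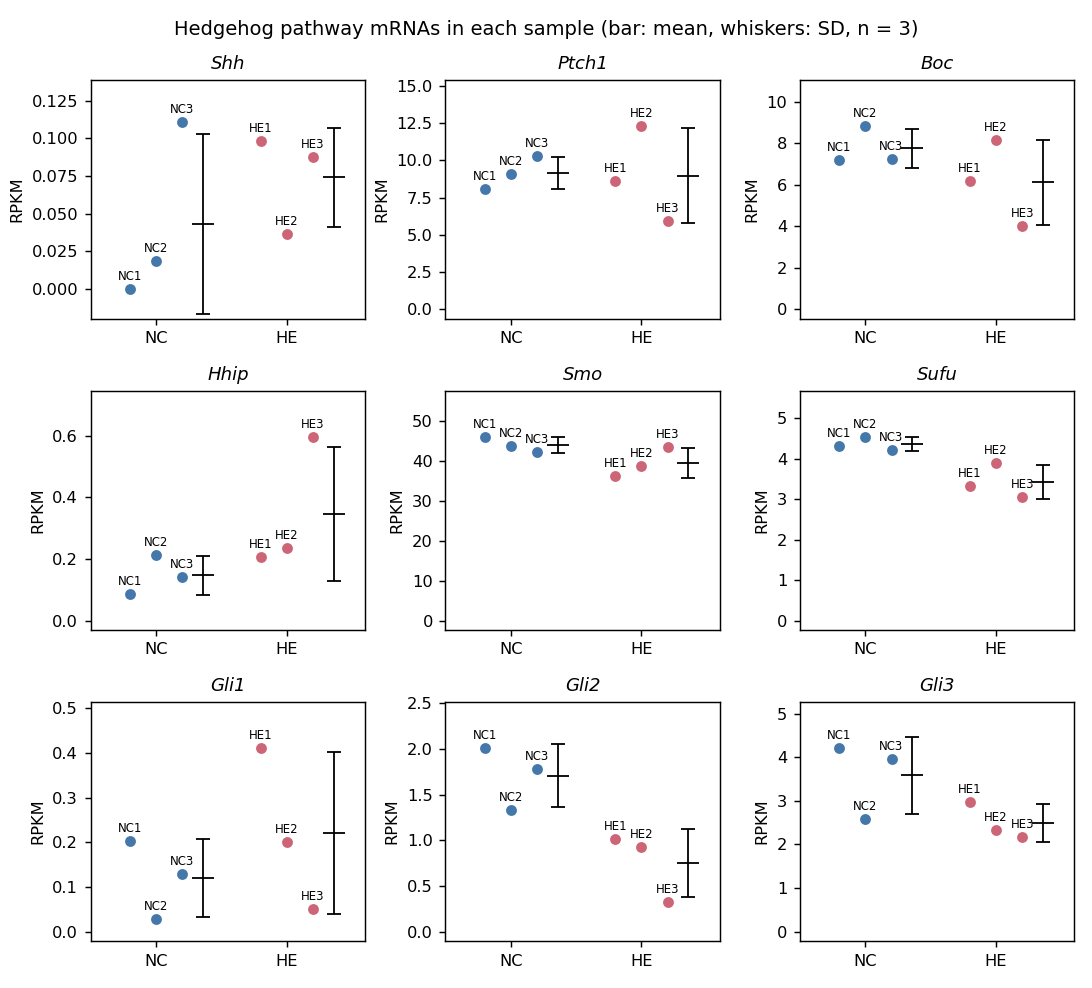
RPKM (y axes, 1 scale per panel, starting at or below 0) of the 9 mRNAs in each NC sample (blue) and HE sample (red), with the group mean and SD (n = 3) drawn to the right of the points. All HE points of Gli2 and Sufu lie below all NC points, and the groups overlap in the other 7 panels.

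Shh, the ligand on chromosome 5 (28456840 to 28467101), had 0, 1 and 6 reads in NC1, NC2 and NC3 and 5, 2 and 4 reads in HE1, HE2 and HE3. The highest of these, 6 reads in NC3, is 0.111 RPKM with an exact 95% Poisson interval of 0.0408 to 0.242 RPKM, which covers counting error only. Shh did not pass the filter on low counts, its samples overlapped, and no difference between the groups was detectable at this depth. Another ligand of the family was abundant. Dhh, which is best known from the testis and from Schwann cells, was at 16.3, 9.09 and 16.6 RPKM in NC and at 19.1, 14.0 and 20.1 RPKM in HE, with overlapping groups (log2 fold change 0.38, standard error 0.26, adjusted p = 0.400). Dhh was chosen from the list of ligand genes after its values were seen.

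Ptch1, the receptor that also answers to the pathway as a target, was at 8.09, 9.08 and 10.3 RPKM in NC and at 8.64, 12.3 and 5.95 RPKM in HE. Both the highest and the lowest of the 6 values were HE samples, HE2 and HE3. The log2 fold change was -0.08 (95% interval -0.69 to 0.52, adjusted p = 0.859), and it turned to 0.18 without HE3, so no direction can be given for Ptch1.

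Boc, a co-receptor of the immunoglobulin superfamily that binds the ligand together with Ptch1, was at 7.19, 8.84 and 7.25 RPKM in NC and at 6.19, 8.13 and 4.03 RPKM in HE. The value of HE2 lay within the NC range, and HE3 was at 52.0% of the NC mean. On the log2 scale the fold change was -0.39 (standard error 0.25, adjusted p = 0.376), and -0.12 without HE3.

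Hhip, a membrane protein that captures hedgehog ligands and is induced by the pathway, was scarce. It had 8, 20 and 13 reads in NC and 18, 22 and 47 reads in HE, or 0.0871, 0.213 and 0.140 RPKM and 0.205, 0.236 and 0.597 RPKM. HE1 lay just under NC2, and HE3 stood above all other samples. The exact 95% Poisson interval of HE3, which covers counting error only and not the spread between samples, was 0.439 to 0.794 RPKM. HE against NC gave a log2 fold change of 0.78 (95% interval -0.11 to 1.67, adjusted p = 0.274), and 0.41 without HE3.

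Smo, the transducer that passes the signal on from the cilium, was at 46.0, 43.8 and 42.1 RPKM in NC and at 36.3, 38.7 and 43.5 RPKM in HE. HE3 lay within the NC range and the other HE samples lay below it. Smo had a log2 fold change of -0.16 (95% interval -0.41 to 0.10, adjusted p = 0.402). Without HE3 the groups did not overlap and the log2 fold change was -0.23 (standard error 0.09, adjusted p = 0.226).

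Sufu, which holds Gli proteins in the cytoplasm and favours their repressor forms, was at 4.31, 4.54 and 4.20 RPKM in NC and at 3.31, 3.90 and 3.05 RPKM in HE. Every HE value lay below every NC value, and the means were 4.35 ± 0.170 RPKM for NC against 3.42 ± 0.431 RPKM for HE (SD, n = 3). The log2 fold change was -0.34 (95% interval -0.69 to 0.003, adjusted p = 0.246), and -0.27 without HE3, and Sufu was not called.

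Gli2, the main activator among the Gli factors, had the lowest p-value of the 8 tested members when all 6 samples were kept. Its group means differed 2.27-fold, slightly less than the 2.36-fold of Hhip, and without HE3 the log2 fold change of Gli1 was larger in size. It was at 2.01, 1.33 and 1.78 RPKM in NC, from 259, 175 and 231 reads, and at 1.01, 0.924 and 0.326 RPKM in HE, from 124, 121 and 36 reads. All HE samples lay below all NC samples, and the mean in HE was 44.1% of that in NC. The log2 fold change was -1.18 (95% interval -2.09 to -0.27, adjusted p = 0.197), so Gli2 was not called. HE3, at 19.1% of the NC mean, carried much of the size, and without it the log2 fold change was -0.74 (standard error 0.21, adjusted p = 0.164). HE1 and HE2 by themselves still lay below the lowest NC sample.

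Gli3, the main repressor of the family, was at 4.21, 2.58 and 3.96 RPKM in NC and at 2.98, 2.33 and 2.16 RPKM in HE. The groups overlapped through NC2, which lay below HE1, and NC2 was also the lowest NC sample for Gli2. For Gli3 the log2 fold change was -0.49 (95% interval -1.04 to 0.05, adjusted p = 0.267), and -0.40 without HE3 (adjusted p = 0.384). Gli3 was the most abundant Gli mRNA in each of the 6 samples.

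Gli1, the activator whose own transcription depends on the pathway, had 14, 2 and 9 reads in NC and 27, 14 and 3 reads in HE. In RPKM these were 0.204, 0.0285 and 0.130 in NC and 0.411, 0.200 and 0.0509 in HE, so that HE1 was highest and NC2 and HE3 were both near 0. The log2 fold change was 0.46 (95% interval -0.74 to 1.66, adjusted p = 0.599), and 0.92 without HE3 (adjusted p = 0.288). In RefSeq the span of Gli1 overlaps that of 1 protein-coding gene, Arhgap9. The study describes strand-specific libraries, but whether counting used the strand is not stated, so at so few reads some could belong to Arhgap9.

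**Figure D2:**
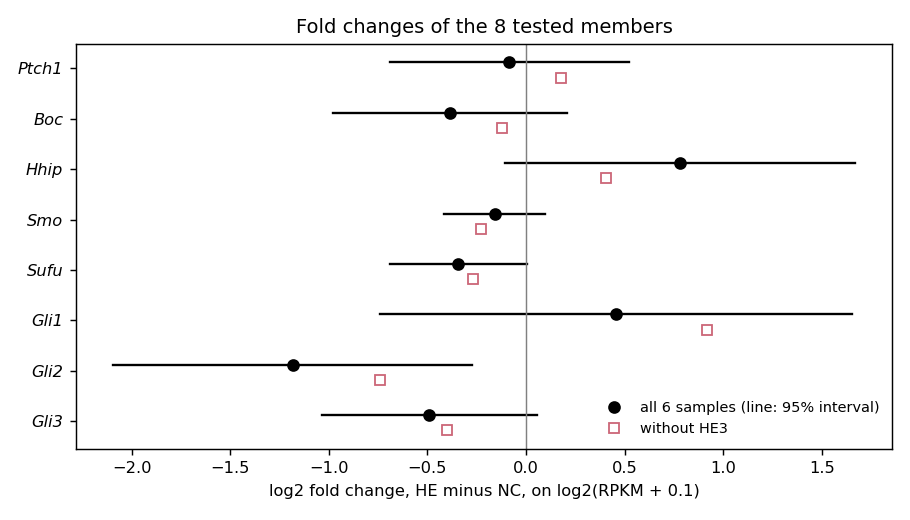
Log2 fold change of HE against NC (x axis, on log2(RPKM + 0.1)) for the 8 tested members, from all 6 samples with its 95% interval (black) and without HE3 (red squares). The interval of Gli2, -2.09 to -0.27, is the one that lies wholly on one side of 0, and Ptch1 changes side without HE3.

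The Gli mRNAs were also set against each other within each sample. The ratio of Gli2 to Gli3 in RPKM was 0.477, 0.515 and 0.448 in NC and 0.338, 0.397 and 0.151 in HE, with every HE sample below every NC sample. This ratio was looked at because Gli2 and Gli3 lead the activator and repressor arms. Since its parts are members whose values were known, it is given with no test. Other ratios taken, Gli1 to Gli3, Smo to Ptch1, Sufu to Gli3, Boc to Gas1 and Boc to Cdon, overlapped between the groups. Gli2 made up 30.3% to 33.8% of the summed Gli RPKM in NC and 12.8% to 26.7% in HE. The sum of the 3 mRNAs was 6.42, 3.94 and 5.86 RPKM in NC and 4.40, 3.45 and 2.54 RPKM in HE, where NC2 lay below HE1.

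**Figure D3:**
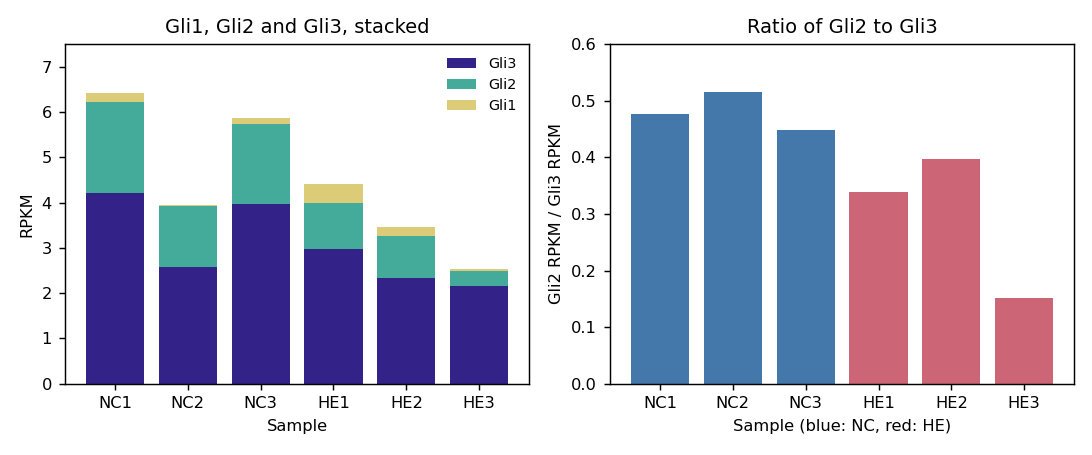
Left, RPKM of Gli1, Gli2 and Gli3 stacked for each sample. Right, the ratio of Gli2 RPKM to Gli3 RPKM in NC (blue) and HE (red) samples. The ratio is between 0.448 and 0.515 in NC and between 0.151 and 0.397 in HE.

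A gene was called when it changed by 1 log2 unit or more, up or down, at an adjusted p-value below 0.05. In limma this held for 0 of the 8 members tested and for 0% of all 13952 genes, and voom on the read counts also called 0 members. The share over all genes depends on the fit, and 268 genes were called with sample weights. With another test, on counts, the study reports mRNAs called in both directions at the same cutoffs. With the unadjusted p-value below 0.05 there was 1 member lower in HE, Gli2, and 0 higher, against 11.8% and 8.68% of all genes tested. Gli2 and Sufu, 2 of 8, had all HE values below all NC values, which held for 17.9% of all genes, and 0 of 8 had them all above, against 14.8%. Read against these shares, the members' counts over the 6 samples do not stand out. Without HE3 the members lower at an unadjusted p-value under 0.05 were Gli2 and Smo, where 10.5% of all genes were lower and 9.35% higher, and Gli2, Smo and Sufu lay below NC in every sample, against 20.1% of all genes. Without NC1, 0 members had an unadjusted p-value under 0.05. The median log2 fold change was -0.25 over the 8 members (-0.18 without HE3) and -0.06 over all genes tested. HE3 had the lowest of the 6 values in 5 of the 8 members and in 44.4% of all genes tested.

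The other genes of the pathway were taken from lists by role, which held 66 genes beside the members, 59 of them tested. Of these, 6 (10.2%) were lower and 2 (3.39%) higher at the same unadjusted p-value, close to and below the shares of all genes, and 0 passed the adjusted threshold in limma or in voom. The median log2 fold change of the 59 was -0.11, and 0.007 without HE3.

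Among genes for ligand production and release, 7 of 8 were tested, and 1 was lower and 0 higher at this p-value. Scube3, of a family of secreted proteins that help to release Shh from cells, was at 3.40, 1.83 and 2.47 RPKM in NC and 1.37, 1.13 and 0.783 RPKM in HE. The groups did not overlap, and the log2 fold change was -1.15 (standard error 0.29, adjusted p = 0.195), and -0.95 without HE3.

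Among the other 5 surface proteins, all of them tested, 1 was lower and 1 was higher. Gas1, a co-receptor anchored to the membrane, was at 33.4, 29.9 and 25.7 RPKM in NC and 19.8, 21.1 and 22.9 RPKM in HE (log2 fold change -0.47, standard error 0.13, adjusted p = 0.195). Gpc3, a glypican that binds hedgehog ligands and lowers their signal, was at 0.753, 0.408 and 1.00 RPKM in NC and 2.76, 2.83 and 1.78 RPKM in HE (log2 fold change 1.68, standard error 0.33, adjusted p = 0.195). Neither gene had overlapping groups, and without HE3 the log2 fold changes were -0.53 for Gas1 and 1.89 for Gpc3. The co-receptor Cdon, chosen after its values were seen as the partner of Boc and Gas1, was at 8.15, 1.77 and 7.42 RPKM in NC and 4.16, 2.49 and 2.34 RPKM in HE, so that NC2 was again the low NC sample.

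Of the 23 other intracellular regulators 4 were lower and 0 higher, where 11.8% of all genes were lower, and 9 had all HE values below all NC values, against 17.9% of all genes. Without HE3 there were 2 lower, Iqce and Dyrk2, and 1 higher, Efcab7, which was named after its values were seen. The 4 were Iqce and Evc2, parts of a complex at the base of the cilium that relays the signal from Smo, Dyrk2, a kinase that acts on Gli proteins, and Gpr161, a ciliary receptor that keeps the pathway off. Iqce ranged from 5.01 to 5.28 RPKM in the NC samples, above the HE range of 3.60 to 4.15 RPKM, a log2 fold change of -0.41. Dyrk2 had a log2 fold change of -0.60, Gpr161 of -0.41 and Evc2 of -0.27, with adjusted p-values of 0.196 to 0.237 over the 4 genes. Without HE3 the log2 fold changes were -0.35 for Iqce, -0.39 for Dyrk2, -0.26 for Gpr161 and -0.24 for Evc2, and the last pair no longer passed. HE3 was the lowest sample for 16 of the 23. The median log2 fold change of the 23 was -0.14, and -0.09 without HE3.

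Of the 16 target genes that are not members 11 were tested, of which 1 was higher and 0 lower, and their median was 0.28 on the log2 scale (0.16 when HE3 was left out). The one was Nkx2-2, a homeobox gene of the ventral neural tube that Shh induces, at 2.24, 2.24 and 2.41 RPKM in NC and 3.09, 3.57 and 3.35 RPKM in HE (log2 fold change 0.52, standard error 0.14, adjusted p = 0.195), with no overlap, and the fold change without HE3 was also 0.52. Of 7 genes known to be repressed by Shh 6 were tested, and 1, Gas1 again, was lower. The 10 genes of ciliary transport, which the pathway needs, had 0 genes past this p-value in either direction, the lowest in limma being 0.05002. In 2 of the 10 all HE values lay below all NC values, against 17.9% of all genes. Without HE3, 1 was lower at this p-value, against 10.5% of all genes. All 10 had a log2 fold change under 0, as had 7843 of the 13952 genes tested. The median of the 10 was -0.17, against -0.06 over all genes, and came to -0.06 without HE3, which was the lowest sample for 9 of the 10.

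**Figure D4:**
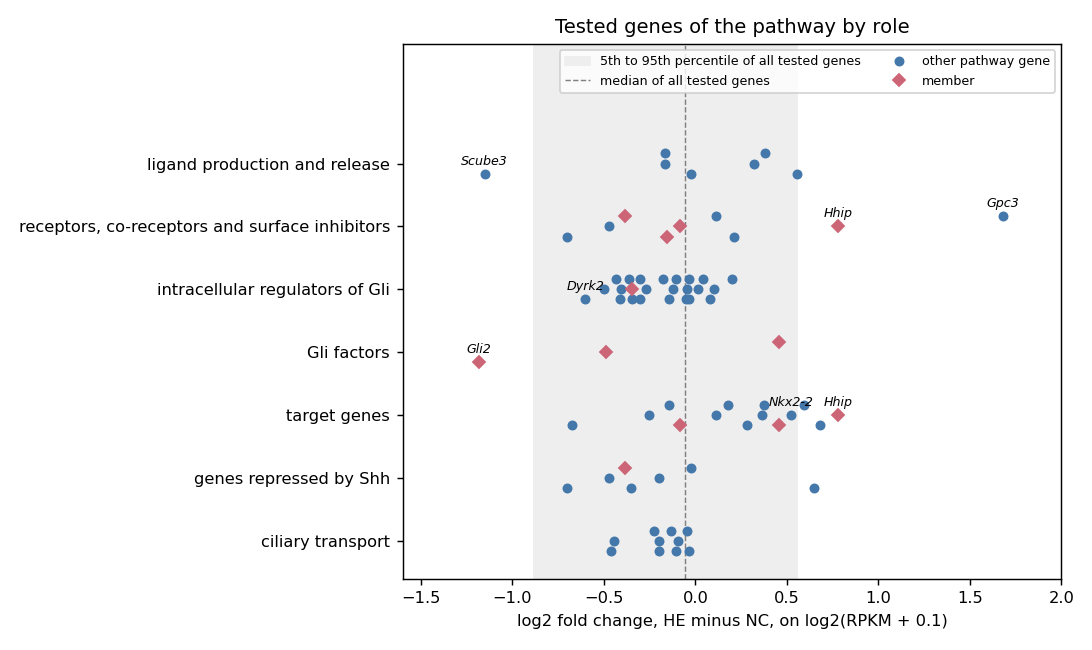
Log2 fold change of HE against NC (x axis, on log2(RPKM + 0.1)) for each tested gene of the pathway lists, by role, with members as red diamonds and other genes as blue circles. The grey band runs from the 5th to the 95th percentile of all 13952 tested genes, -0.88 to 0.56, and Gli2, Scube3, Hhip and Gpc3 are among the genes outside it.

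Markers of other cells moved with the groups in part, and in bulk RNA fewer cells of a type and less RNA per cell cannot be told apart. The 7 mesenchymal and perivascular markers, cells in which the pathway is often active, summed to 71.2, 22.0 and 36.8 RPKM in NC and to 141, 106 and 62.0 RPKM in HE, with Col3a1 the most abundant. All 7 had reads in every sample, and 2 of the 6 tested lay above NC in every HE sample, against 14.8% of all genes tested. Gli1 was highest in HE1 and lowest in NC2, as this sum was, and HE3 was low in Gli1 with a sum above that of NC3. Col1a2, Col3a1, Pdgfrb and Lum shared these extremes. Col1a1 and Rgs5 were instead highest in HE2, and Rgs5 and Dcn lowest in NC3. The 5 markers of the telencephalon summed to 13.2, 3.44 and 8.33 RPKM in NC and to 4.14, 2.91 and 1.23 RPKM in HE. NC2 was the lowest NC sample and HE3 the lowest of all, as for Gli2, but the summed groups overlapped, with HE1 above NC2. Among them only Emx2 lay below NC in every HE sample. Dlx1, Dlx2 and Gsx2 overlapped with lower HE means, and Lhx6 overlapped with an HE mean at 169% of NC. The 6 hypothalamic markers summed to 5.43 to 7.90 RPKM in NC and 8.33 to 10.6 RPKM in HE. Of the 5 tested, 3 lay above NC in every HE sample, Foxb1, Nkx2-4 and Six6, against 14.8% of all genes tested. Six6 had 12, 1 and 3 reads in NC and 12, 13 and 13 in HE, so NC1 and HE1 were equal in reads. The other 2 tested were lower on average, with HE means at 62.8% of NC for Nkx2-1 and 67.8% for Six3, and overlapped. The summed astrocyte markers were 1365 to 1722 RPKM in NC and 934 to 1362 RPKM in HE, where HE1 lay only just below NC3. Of the 5 markers Aldh1l1 lay below NC in every HE sample, S100b lay above, and Gfap, Aqp4 and Slc1a3 overlapped. HE3 was at 29.2% of the NC mean for Gfap. The progenitor markers Sox2 and Prom1 also lay below NC in every HE sample, with HE means at 72.7% and 56.5% of NC, while the other 5 of that list overlapped. The 6 endothelial markers summed to 3.68 RPKM at most and the 5 microglial markers to 5.69 RPKM, and both sums were higher in every HE sample. Cdh5 held most of the endothelial sum in HE. Pecam1, Kdr and Tek overlapped. Cldn5 and Emcn, at 1 to 6 and 0 to 2 reads, lay above NC in every HE sample only after scaling to read totals. Cldn5 had 1 read in each NC sample and in HE1, and Emcn had 1 read in NC2, HE1 and HE2. C1qa and C1qb held most of the microglial sum in HE but not in NC, and Cx3cr1, Aif1 and Csf1r overlapped. No C1qa read was found in NC1 and NC2, and no C1qb read in NC2 and NC3. The part of these cells and regions in the values of Gli1, Gli2, Sufu and Hhip was not tested.

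**Figure D5:**
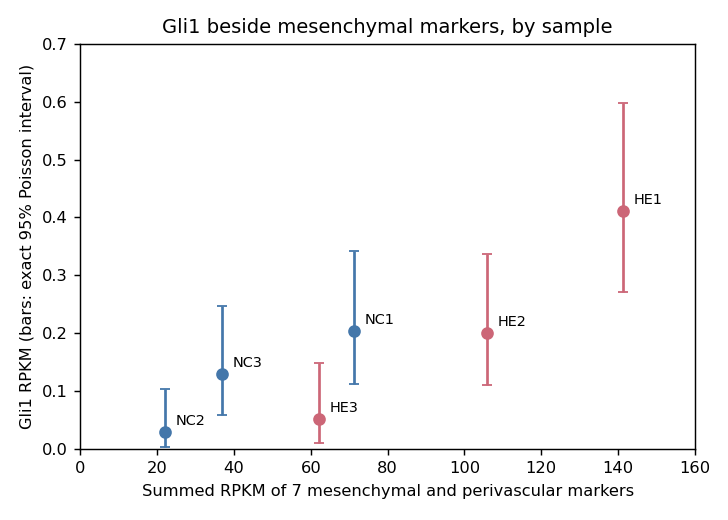
Gli1 RPKM with its exact 95% Poisson interval (y axis) against the summed RPKM of 7 mesenchymal and perivascular markers (x axis) in each NC (blue) and HE (red) sample. HE1 is highest on both axes and NC2 lowest on both, while HE3 lies low in Gli1 at a sum of 62.0 RPKM.

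The genes whose course over the 6 samples was most like that of Gli1 or Gli2 were found by the root mean square distance of log2(RPKM + 0.1), each gene centred on its own mean, among tested genes with a mean of at least 1 RPKM. For Gli1 the nearest 5 of 11524 genes were Olfml1, Emp1, Pdgfrb, Cthrc1 and Ifitm1, at distances of 0.078 to 0.22 log2 units. Gli1 was at 0.0285 to 0.411 RPKM, so the added 0.1 narrowed its range more than that of these more abundant genes. Its values also rest on 2 to 27 reads per sample. Pdgfrb, a receptor of pericytes and fibroblasts, is also in the mesenchymal list, and was at 2.21, 0.744 and 1.63 RPKM in NC and 2.52, 2.09 and 1.07 RPKM in HE. For Gli2 the nearest 5 of 11523 were Setbp1, Tjp3, Arvcf, Epha1 and Tspan18, at distances of 0.094 to 0.13. Arvcf, a catenin of cell junctions, was at 37.0, 24.8 and 30.6 RPKM in NC and 21.9, 15.6 and 7.58 RPKM in HE, the same order of samples as Gli2. These names are a description over 6 samples, with no test.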

How the data were processed

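RNA-Seq was analysed in 3 NC and 3 HE samples, grouped by the sample titles. Per the study's methods, reads of poor quality or with adaptor were discarded, and the authors aligned the remainder to mm10 with TopHat2 and counted reads per gene. The counting tool, annotation and use of strand are not given in the sources used here. The deposited table holds read counts, not normalized, and RPKM values of the authors, which equal the count divided by gene length and sample total (checked, largest difference 4.99e-07). The deposited counts are written with commas between digits. Tests were run on RPKM, and the counts served for the filter, intervals and voom.

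Values as log2(RPKM + 0.1) were fitted in limma 3.58.1 (R 4.3.3) with a trend of variance on mean and group as the only term. Cutoffs were 1 for the log2 fold change and 0.05 for adjusted p. Tested were the 13952 genes with 15 reads in all and, in 3 samples, a rate equal to 10 reads at the median depth. The study names another test, on counts, and reports called mRNAs from it at the same cutoffs. That test was not run here. The study says that samples were harvested separately, each from 2 mice, but the sources used here do not say whether the mice of a group came from separate litters, so p-values measure the spread between these samples.

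Members and gene lists were chosen with earlier results of these data known. Named were the members, up to 4 listed genes per role and direction at an unadjusted p-value under 0.05, and the 5 genes nearest to Gli1 and to Gli2. Symbols were matched for 21781 genes. Coordinates and promoters are from RefSeq (GRCm38.p6). Alternatives were a pseudocount of 1, median-of-ratios scaling, filters, the replicate block, each sample left out, voom, sample weights and robust empirical Bayes.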

Additional observations from a re-analysis of the deposited data

How the results depend on the processing

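In 15 alternatives, members kept their direction in 114 of 118 values and none was called. The exceptions were all Ptch1, with a log2 fold change of 0.30 with sample weights, 0.25 with voom and sample quality weights, 0.18 without HE3 and 0.0032 without NC3 (-0.34 to 0.18 over the fits with one sample left out). Over all genes 268 were called with sample weights, which set HE3 low, and 113 with voom and sample quality weights. With one sample left out the count was 0 to 103, the latter without NC3. Members at an unadjusted p-value under 0.05 numbered 4 with either kind of sample weights (Smo, Gli2, Gli3 and Hhip) and 2 with voom or robust empirical Bayes (Gli2 and Sufu). With one sample left out they numbered 0 (without NC1) to 3 (Gli2, Gli3 and Hhip without HE1, and Gli2, Sufu and Boc without HE2). The adjusted p-value of Gli2 ranged from 0.0475 with sample weights, at a log2 fold change of -0.90, to 0.502 without NC1, and its log2 fold change was -0.64 with a pseudocount of 1. Other pathway genes at this p-value numbered 15 with sample weights and 4 (without NC1) to 13 (without HE1 or HE2) with one sample left out, and their median was -0.14 to 0.0068. With sample weights Gpc3 and Scube3 were called, and Gpc3 also with voom and sample quality weights. The cause of these shifts was not tested. With the replicate number as a block, 15 other pathway genes and 1 member had an unadjusted p-value under 0.05. Samples of the same number correlated in their deviations from the group means at 0.16, 0.087 and 0.060, each higher than with the other numbers of the other group, but the labels do not tie the numbers to a shared litter or day. At a few reads per sample, depth limits what can be said of Shh and Gli1.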

Other observations

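The cyclins Ccnd1 and Ccnd2, which are listed as target genes of the pathway and drive entry into the cell cycle, were named after their values were seen. Ccnd1 was at 189, 155 and 218 RPKM in NC and at 216, 207 and 489 RPKM in HE, so that HE1 and HE2 lay within the NC range and HE3 far above it. Ccnd2 was at 38.2, 23.7 and 34.2 RPKM in NC and at 37.9, 40.1 and 84.4 RPKM in HE, again with HE3 far above the rest. HE3 was at the same time the lowest sample for 5 of the 8 tested members, among them Ptch1, Gli2 and Gli3, and for 44.4% of all genes tested. For Hhip HE3 was the highest sample.

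Of the genes that Shh represses in the neural tube, Irx3 and Pax3, also named after their values were seen, varied by sample rather than by group. Irx3 was at 2.69, 10.8 and 3.86 RPKM in NC and at 3.62, 6.61 and 2.22 RPKM in HE. Pax3 was at 0.0172, 0.650 and 0.290 RPKM in NC and at 0.117, 0.703 and 0.0302 RPKM in HE, with NC2 and HE2 highest in both mRNAs.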
